A study of Mus musculus with 2 samples.

Results

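Neutrophils that carried the calprotectin transcripts S100a8 and S100a9 at a low level were examined in subcutaneous mouse tumours. CMT167R, a line of anti-PD1 resistant carcinoma cells, had been injected into C57BL/6 mice, and the genotype of both samples is labelled WT. One group was given PKCi, named only by that abbreviation, intraperitoneally each day at 3 mg/kg, and the other group the control solvent. Tumours were collected when the control ones measured 400 mm3. There was 1 droplet library per treatment. Neither the number of mice behind a library nor a sort for leukocytes is given in the labels. RNA molecules were counted by their unique molecular identifiers (UMIs), and a barcode stands for 1 droplet, which normally holds 1 cell. A barcode was taken as an S100-low neutrophil if it had at least 500 detected genes and at most 20% mitochondrial UMIs, S100a8 plus S100a9 at 0.5% to under 5% of its UMIs, C1qa, C1qb and C1qc under 0.3%, Lyz2 under 0.2%, and at least 2 UMIs over Csf3r, Cxcr2, Il1r2, Hdc and G0s2. The barcodes were thus chosen by measured levels of the 2 S100 genes, the 5 marker genes, C1q and Lyz2, which are given as a description only. This rule found 78 barcodes in the PKCi library and 72 in the control library, 150 of 13590 kept barcodes in all. They were set against the S100-high barcodes, at 5% or more of S100a8 plus S100a9, of which there were 58 in the PKCi and 193 in the control library. The limits on C1q, Lyz2 and the 5 marker genes were not put on the S100-high barcodes. With those limits 53 PKCi and 152 control S100-high barcodes would remain. Since there was 1 library per treatment, no difference between treatments has a replicate check and none was tested. Every interval below is an exact 95% interval that covers counting error only.

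Neutrophils are short-lived granulocytes made in the bone marrow, which fill their granules with antimicrobial proteins before they enter the blood. They are drawn into tissue through receptors such as Cxcr2, the receptor of the chemokines Cxcl1 and Cxcl2, and they live longer under hypoxia and under granulocyte colony-stimulating factor, which signals through Csf3r. S100a8 and S100a9 form calprotectin, a calcium- and metal-binding complex that is among the most abundant cytosolic proteins of mature neutrophils, and in mouse tumours neutrophils are known to differ in how much of its RNA, of granule RNA and of hypoxia-linked RNA they hold.

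The S100-low barcodes carried other neutrophil genes that the rule had not used. A list of 16 such genes summed to 15336 CPM (UMIs per 1000000 UMIs of the summed cells) in the PKCi and 22783 CPM in the control S100-low neutrophils, against 72.9 CPM (PKCi) and 124 CPM (control) in the remaining barcodes, most of which are carcinoma cells. In other myeloid groups the list was higher than that, at 4271 CPM (PKCi) and 4263 CPM (control) in C1q-high barcodes and 2423 CPM (PKCi) and 3658 CPM (control) in Lyz2-high barcodes. Wfdc17 and Mmp9 made up most of the sum in C1q-high barcodes. Every S100-low barcode under the carcinoma limit described below held at least 1 UMI of the list, and 72 of 76 PKCi and 50 of 50 control barcodes held at least 5. Among them were Clec4d, a C-type lectin receptor, at 2193 CPM in the PKCi library and 2341 CPM in the control library, and Acod1, the enzyme that makes itaconate, at 1927 CPM in the PKCi library and 1414 CPM in the control library. Ly6g, the usual surface marker of mouse neutrophils, had only 1 UMI in the PKCi and 2 UMIs in the control library. The label of the barcodes as neutrophils therefore rests on the other genes. Of the 5 genes that the rule used, G0s2 was the most abundant, at 7298 CPM in the PKCi library and 3397 CPM in the control library, and Hdc, histidine decarboxylase, stood at 1847 (PKCi) and 555 (control) CPM. The decoy interleukin-1 receptor Il1r2 stood at 1097 (PKCi) and 609 (control) CPM, Csf3r at 538 (PKCi) and 453 (control) CPM and Cxcr2 at 495 (PKCi) and 176 (control) CPM. S100a8 itself stood at 7575 (PKCi) and 11334 (control) CPM and S100a9 at 15623 (PKCi) and 15664 (control) CPM, so S100a8 was the less abundant of the pair in both libraries. The median barcode had 27.5 UMIs of the 5 genes in the PKCi and 9.5 in the control library.

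Part of the control barcodes also carried RNA of the tumour cells. Of the 72 control S100-low barcodes, 22 held 3 or more UMIs of Krt8 and Rhox5, genes of the carcinoma cells, against 2 of 78 in the PKCi library. These 22 had a median of 48176 UMIs and supplied 1068423 of the 1216209 UMIs of all control S100-low barcodes. Scrublet, a doublet caller, marked 10 of the 22 control barcodes and 1 of the 2 PKCi barcodes. All gene levels below were therefore taken from barcodes with fewer than 3 such UMIs. With no such limit 762 genes would be at least 2-fold higher and 1368 lower between treatments, and Hilpda, Tmem38b and Il1a, lower in PKCi S100-low neutrophils below, would have log2 ratios of 0.14, 0.31 and 0.37. The barcodes used were 76 PKCi barcodes with 187864 UMIs in all and a median of 1980.5, and 50 control barcodes with 147786 UMIs and a median of 2813. The S100-high barcodes under the same limit were 58 PKCi barcodes with 128740 UMIs and 184 control barcodes with 716938.

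**Figure D1:**
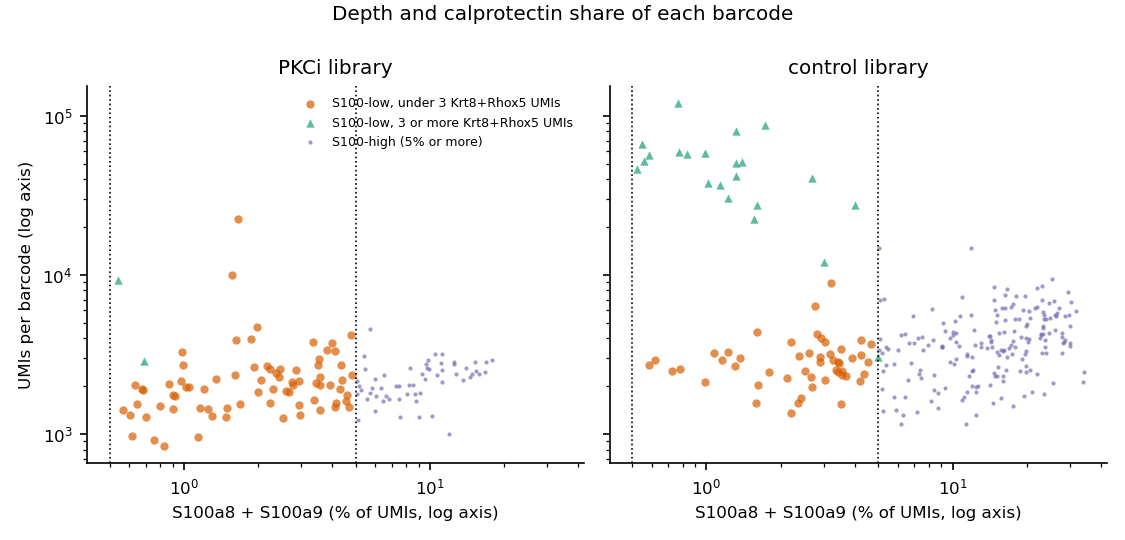
UMIs of each barcode (vertical, log axis) against its share of S100a8 plus S100a9 (horizontal, percent of UMIs, log axis) in the PKCi (left) and control (right) libraries, with dotted lines at 0.5% and 5%. Triangles mark S100-low barcodes with 3 or more Krt8 and Rhox5 UMIs, 2 in the PKCi and 22 in the control library, and most of the control ones lie far above the other S100-low barcodes in depth.

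Apart from 1 control barcode described below, other cell types left few traces under this limit. The summed macrophage markers Mrc1, Adgre1, Ms4a7, Apoe and Csf1r stood at 112 CPM in PKCi and 169 CPM in control S100-low neutrophils, against 6733 CPM in PKCi and 7417 CPM in control C1q-high barcodes. Marker sums of monocytes, dendritic cells, platelets, endothelium and fibroblasts lay between 10.6 and 53.2 CPM in the PKCi and between 33.8 and 176 CPM in the control library. The carcinoma marker sum was 128 (PKCi) and 74.4 (control) CPM. It was held down by the limit itself, which uses 2 of its 3 genes, and is no separate check. Markers of NK cells, B cells, and mast cells and basophils were at 0 UMIs in both libraries, which allows up to 16 and 20.3 CPM for a gene. T cell markers summed to 5.32 CPM in the PKCi and 237 CPM in the control library, and all 35 control UMIs came from 1 barcode. That barcode had 8937 UMIs, the most of any control barcode under the limit, and also held 16 UMIs of dendritic markers. It held 6.05% of the control UMIs used and was kept in the control levels. Siglecf, an eosinophil marker that tumour neutrophils can also carry, had 1 UMI in each library. Of the barcode sequences, 20 occurred in both libraries and none of them was an S100-low neutrophil. Mitochondrial RNA was low, at a median of 0.214% of UMIs in the PKCi and 0.383% in the control library, against 1.49% and 1.66% over all kept barcodes.

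The S100 limits cut through a continuous range. The highest S100-low share was 4.82% in the PKCi and 4.97% in the control library, and the lowest S100-high shares were 5.04% and 5.01%. At the lower limit, the lowest shares inside were 0.538% and 0.525%, and the highest shares outside were 0.466% and 0.489%. Of the barcodes in the S100 window, 87 in the PKCi and 86 in the control library, the limit on C1q removed 1 and 1, that on Lyz2 then removed 6 and 3, and that on the 5 marker genes 2 and 10.

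The S100-low neutrophils took shares of the libraries whose intervals overlap, while the S100-high barcodes took a smaller share of the PKCi library. S100-low neutrophils were 1.08% (0.856 to 1.35) of 7210 kept PKCi barcodes and 1.13% (0.884 to 1.42) of 6380 kept control barcodes, a ratio of 0.959 (0.687 to 1.34). With barcodes under the carcinoma limit alone, the shares were 1.05% (0.831 to 1.32) and 0.784% (0.582 to 1.03), a ratio of 1.35 (0.929 to 1.96). Both intervals include equal shares. The S100-high barcodes took 0.804% (0.611 to 1.04) of kept PKCi and 3.03% (2.62 to 3.48) of kept control barcodes, a ratio of 0.266 (0.195 to 0.358). Among S100-low and S100-high barcodes together, the S100-low ones thus made up 57.4% (48.6 to 65.8) in the PKCi and 27.2% (21.9 to 33.0) in the control library, a ratio of 2.11 (1.51 to 2.95). Under the carcinoma limit these were 56.7% (47.9 to 65.2) in the PKCi and 21.4% (16.3 to 27.2) in the control library. Shares of kept barcodes move with every other cell type, and with 1 library each, treatment and library cannot be told apart.

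**Figure D2:**
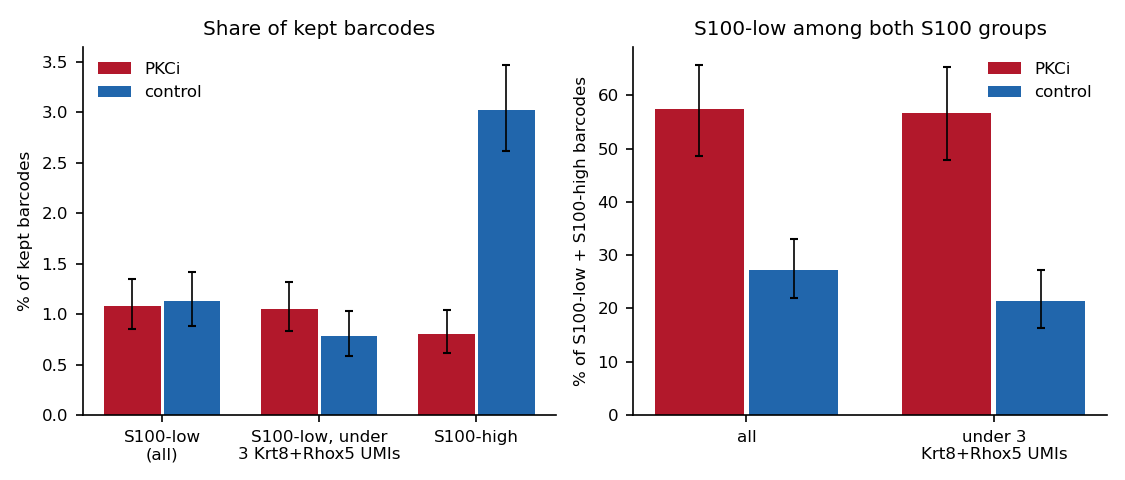
Left, the share of kept barcodes (percent) that were S100-low, S100-low under the carcinoma limit, and S100-high in the PKCi (red) and control (blue) libraries; right, the S100-low share of both S100 groups. Bars are 1 library each with exact 95% counting intervals, and only the S100-high share and the S100-low share within both groups have intervals that lie apart, at 0.804% against 3.03% and at 57.4% against 27.2%.

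PKCi S100-low neutrophils held less RNA of the hypoxia response and glycolysis, of iron storage and haem breakdown, and of several granule genes than control ones, and more RNA of the co-stimulatory ligand Cd80, the ectonucleotidase Entpd1 and the NF-kB subunit gene Nfkb1. Of 1005 genes with at least 50 UMIs over both sums and 50 CPM in 1 of them, 157 were at least 2-fold higher in the PKCi library, which is 15.6%, and 91 were at least 2-fold lower, which is 9.05%. The median log2 ratio over the 1005 genes was 0.10. Among S100-high barcodes 13.5% of 1808 genes were at least 2-fold higher and 9.18% at least 2-fold lower. Of 882 genes that could be named and were measured in both groups, 86 were at least 2-fold higher in the PKCi library in S100-low and S100-high barcodes alike, 41 were at least 2-fold lower in both, and 3 went opposite ways.

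The ratio moved with the length of the gene. In S100-low neutrophils the median log2 ratio was -0.30 for the 335 genes that span up to 9.76 kb, 0.09 for the 335 genes from there to 45 kb, and 0.57 for the 335 longer genes. Of the longest genes 28.7% were at least 2-fold higher in the PKCi library and 2.99% at least 2-fold lower, while of the shortest 5.07% were higher and 11.9% lower. The S100-high barcodes had medians of -0.09, 0.10 and 0.40 for the same ranges. In the remaining barcodes the medians over the same genes as in S100-low neutrophils were 0.01, -0.02 and -0.04, and in Lyz2-high barcodes -0.03, -0.09 and 0.07. Among nuclear RNAs, Malat1 stood at 21979 CPM in the PKCi library and 19515 CPM in the control library and Neat1 at 926 (PKCi) and 1022 (control) CPM. The part of gene length in the ratios below was not tested. Depth per barcode differed too, and 2 PKCi barcodes with 22411 and 10055 UMIs held 17.3% of all PKCi UMIs. Without them, 149 of 911 genes were at least 2-fold higher and 67 lower, and all 67 were among the 91. Of genes named below as at least 2-fold lower, Asprv1, Bcl2l1, Ccl9, Cd274, Ctsb, Eno1, Fth1, Ftl1, Sod2 and Tnf then had ratios between 0.503 (Ctsb) and 0.57 (Cd274).

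Hypoxia and glycolysis genes were lower in PKCi S100-low neutrophils as a group. Of 27 listed genes 19 were measured, and 12 of them were at least 2-fold lower and 1 at least 2-fold higher. Their median log2 ratio was -1.33. Over all measured genes 9.05% were at least 2-fold lower and 15.6% higher. Hilpda (chr6:29272488-29275446, plus strand), which blocks lipolysis and fills lipid droplets, had 210 UMIs or 1118 CPM in the PKCi and 856 UMIs or 5792 CPM in the control library, a ratio of 0.193 (0.165 to 0.225). One PKCi barcode held 27.1% of the PKCi UMIs. Hilpda was found in 36 of 76 PKCi and 44 of 50 control barcodes. Once each barcode was thinned to 1000 UMIs, the share was 34.7% in the PKCi and 86% in the control library. Barcodes gated on CD3 genes gave 13.7% in the PKCi and 9.59% in the control library, and had medians of 4659 and 5207 UMIs before thinning. Free RNA, doublets and RNA of the CD3-gated cells themselves can all enter such a share. The middle 50% of barcodes lay between 0 and 1314 CPM in the PKCi library and between 2416 and 6735 CPM in the control library, so most control cells carried Hilpda and most PKCi cells had none detected at this depth.

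Most glycolytic enzymes followed the same direction. Triosephosphate isomerase, Tpi1, stood at 101 CPM in the PKCi library and 812 CPM in the control library, a ratio of 0.125 (0.0725 to 0.203), and aldolase, Aldoa, at 335 (PKCi) and 1462 (control) CPM, a ratio of 0.229 (0.17 to 0.305). The Aldoa symbol is on more than 1 gene ID in the files, and the ID with the most UMIs was used. Gapdh stood at 910.2 (PKCi) and 2835 (control) CPM, a ratio of 0.321 (0.267 to 0.384), and lactate dehydrogenase Ldha at 463 (PKCi) and 1232 (control) CPM, a ratio of 0.376 (0.288 to 0.488). The intervals of these 4 enzymes lay below 0.5. Gpi1, Pgk1, Pgam1 and Eno1, which act at other steps of glycolysis, had ratios of 0.305 (0.182 to 0.495), 0.397 (0.285 to 0.547), 0.396 (0.29 to 0.538) and 0.451 (0.289 to 0.695), while Pfkp, at 0.924, and Pkm, at 0.703, were within 2-fold. Outside the enzymes, the mitophagy receptor Bnip3 had a ratio of 0.169 (0.0896 to 0.297), the endoplasmic reticulum oxidase Ero1l 0.229 (0.164 to 0.315), and the cytokine Mif 0.278 (0.205 to 0.373). Fam162a, a mitochondrial protein gene induced under hypoxia that was not on the list, stood at 69.2 CPM in the PKCi library and 697 CPM in the control library, a ratio of 0.0993 (0.0511 to 0.177). Some hypoxia genes did not share the direction. Vegfa, which drives vessel growth, stood at 218 (PKCi) and 122 (control) CPM, the oxygen sensor Egln3 at 442 (PKCi) and 304 (control) CPM, and the lactate exporter gene Slc16a3 at 484 (PKCi) and 311 (control) CPM. The glucose transporter Slc2a3 was the gene at least 2-fold higher, at 256 (PKCi) and 94.7 (control) CPM, but 52.1% of its PKCi UMIs came from 1 barcode.

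The direction was shared by S100-high barcodes, where Hilpda had a ratio of 0.229 (0.178 to 0.291), Bnip3 0.221 (0.105 to 0.413) and Tpi1 0.308 (0.183 to 0.489). There 22 genes of the list were measured, 8 were at least 2-fold lower and none higher, with a median log2 ratio of -0.68. Of all genes measured in S100-high barcodes 9.18% were at least 2-fold lower and 13.5% higher. In the remaining barcodes, mostly carcinoma cells, the ratios were 0.754 for Hilpda, 0.514 for Bnip3 and 0.772 for Tpi1. Within S100-low neutrophils at 2% to 5% of S100 RNA, 40 PKCi and 36 control barcodes, Hilpda stood at 1162 CPM in the PKCi and 6610.0 CPM in the control library, and Tpi1 at 101 (PKCi) and 933 (control) CPM. Both genes were lower in the PKCi library within this range.

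The promoters of 3 of the genes are shown because the genes were lower together. Hypoxia-inducible factors are known to bind DNA at ACGTG and GCGTG. Both were searched on both strands in RefSeq windows of GRCm38.p6 from 250 bases before to 50 after the gene start, and matches are in capitals. A CACGTG holds ACGTG on both strands and gives 2 overlapping matches. The windows lie at chr6:29272238-29272537, plus strand (Hilpda), chr7:138909457-138909756, minus strand (Bnip3) and chr6:124814109-124814408, minus strand (Tpi1).
Hilpda: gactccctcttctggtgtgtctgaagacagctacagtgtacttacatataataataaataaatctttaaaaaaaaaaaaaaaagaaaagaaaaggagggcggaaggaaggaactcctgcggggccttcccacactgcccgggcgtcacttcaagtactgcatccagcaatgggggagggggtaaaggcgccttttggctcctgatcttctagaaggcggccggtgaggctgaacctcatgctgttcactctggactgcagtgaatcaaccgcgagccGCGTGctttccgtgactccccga
Bnip3: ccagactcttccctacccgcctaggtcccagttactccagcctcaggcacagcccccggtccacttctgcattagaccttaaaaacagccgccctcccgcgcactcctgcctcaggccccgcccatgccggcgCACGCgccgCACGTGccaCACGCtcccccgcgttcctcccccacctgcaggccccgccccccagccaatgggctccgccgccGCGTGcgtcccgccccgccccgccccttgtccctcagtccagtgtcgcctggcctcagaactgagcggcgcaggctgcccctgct
Tpi1: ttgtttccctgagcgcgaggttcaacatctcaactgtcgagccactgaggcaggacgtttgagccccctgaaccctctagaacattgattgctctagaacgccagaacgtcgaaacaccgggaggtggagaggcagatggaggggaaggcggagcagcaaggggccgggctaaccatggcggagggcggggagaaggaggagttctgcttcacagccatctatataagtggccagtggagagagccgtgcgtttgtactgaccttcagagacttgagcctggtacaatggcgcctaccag
The Hilpda window held 1 GCGTG, the Bnip3 window 3 GCGTG and 2 ACGTG matches, and the Tpi1 window neither. The window of Aldoa, which is not shown, also held neither. At least 1 of the motifs was in 43.8% of the 27025 windows of the table. Of the 12 lower genes 11 had a window, and 8 of the 11 held a motif, as did 4 of 6 windows of the other measured genes of the list. These matches describe letters only, and no binding was measured.

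Iron storage and haem genes, and lipid and lysosome genes, were lower as well. Hmox1 (chr8:75093621-75100589, plus strand), the enzyme that breaks down haem, had 24 UMIs in the PKCi and 246 UMIs in the control library, or 128 (PKCi) and 1665 (control) CPM, a ratio of 0.0767 (0.0482 to 0.117). It was the lowest ratio among the named genes and was detected in 9 of 76 PKCi and 36 of 50 control barcodes. Hmox1 was also lower in S100-high barcodes, at 0.258 (0.18 to 0.359), in Lyz2-high barcodes, at 0.229, and in the remaining barcodes, at 0.235. The ferritin heavy chain Fth1 stood at 36191 CPM in the PKCi library and 75521 CPM in the control library and the light chain Ftl1 at 5398 (PKCi) and 11868 (control) CPM, ratios of 0.479 (0.465 to 0.494) and 0.455 (0.421 to 0.492). In S100-high barcodes their ratios were 0.881 (0.856 to 0.907) and 0.879 (0.813 to 0.949). With metallothionein Mt1, at 101 (PKCi) and 392 (control) CPM, 4 of 5 measured genes of this list were at least 2-fold lower. The iron transporter Slc11a1, at 314 (PKCi) and 183 (control) CPM, was not. Of all measured genes 9.05% were at least 2-fold lower. Without the deep PKCi barcodes described above, Fth1 and Ftl1 were still lower, but by less than 2-fold. The count then rests on Hmox1 and Mt1.

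Of 12 measured lysosome and lipid genes 5 were at least 2-fold lower and none was higher, with a median log2 ratio of -0.78. The shares over all measured genes were 9.05% lower and 15.6% higher. The lipid droplet coat gene Plin2 stood at 649 CPM in the PKCi library and 1983 CPM in the control library, the protease inhibitor Cstb at 894 (PKCi) and 3302 (control) CPM, and the protease Ctsb at 346 (PKCi) and 805 (control) CPM. The fifth gene, the fatty acid receptor Cd36, rested on 1 control barcode, which held 98% of its UMIs. Basigin, Bsg, which carries lactate transporters to the membrane, stood at 165 (PKCi) and 798 (control) CPM, and Pla2g7, which breaks down platelet-activating factor, at 85.2 (PKCi) and 710.5 (control) CPM, ratios of 0.207 (0.134 to 0.309) and 0.12 (0.0661 to 0.204).

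Genes of the granules and of the neutrophil identity list did not all go one way. Retnlg (chr16:48872621-48874496, plus strand), a resistin-like gene of mouse neutrophils, stood at 415 CPM in the PKCi library and 3329 CPM in the control library, a ratio of 0.125 (0.0969 to 0.159), and Lcn2, a siderophore-binding granule protein, at 208 (PKCi) and 2186 (control) CPM, a ratio of 0.095 (0.0663 to 0.133). Wfdc21 stood at 293 (PKCi) and 988 (control) CPM. These were the 3 of 5 measured genes of secondary and tertiary granules that were at least 2-fold lower, against 9.05% of all measured genes. Mmp9, the gelatinase of tertiary granules, was the exception at 655 (PKCi) and 209.8 (control) CPM, a ratio of 3.12 (2.09 to 4.79). Primary granule genes such as Mpo and Elane were not measured at this depth, since none passed the minimum. At 2% to 5% of S100 RNA, Retnlg stood at 592 CPM in the PKCi and 3895 CPM in the control library, and Lcn2 at 324 (PKCi) and 2185 (control) CPM. In the remaining barcodes Retnlg stood at 0.191 (PKCi) and 3.86 (control) CPM, and the part of such free RNA in its ratio was not tested.

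On the identity list, 15 of 16 genes were measured. Of these 2 were at least 2-fold higher, close to the 15.6% of all measured genes, and 4 lower, against 9.05% of all measured genes. The median log2 ratio was -0.11. Retnlg and Mmp9 are also on the granule list above. The higher identity genes were Mmp9 and Trem1, a receptor that amplifies inflammation, at 761 (PKCi) and 359 (control) CPM. The lower ones were Retnlg, Asprv1 at 367 (PKCi) and 805 (control) CPM, the cystatin-like gene Stfa2l1 at 527 (PKCi) and 2111 (control) CPM, and Wfdc17 at 1443 (PKCi) and 4906 (control) CPM. Slpi, a leukocyte protease inhibitor, at 2076 (PKCi) and 2239.7 (control) CPM, and Clec4e, at 1634 (PKCi) and 1956 (control) CPM, were within 2-fold.

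Among the genes at higher levels in PKCi S100-low neutrophils, Cd80 (chr16:38455561-38496335, plus strand), the ligand of CD28 and CTLA-4 on T cells, had 171 UMIs in the PKCi and 25 UMIs in the control library. These are 910.2 (PKCi) and 169 (control) CPM, a ratio of 5.38 (3.52 to 8.55). It was detected in 54 of 76 PKCi and 17 of 50 control barcodes. After thinning to 1000 UMIs the shares were 51.4% (PKCi) and 18% (control), against 6.87% (PKCi) and 4.11% (control) in CD3-gated barcodes. Cd80 was likewise higher in S100-high barcodes, at a ratio of 6.56 (5.13 to 8.42), while in Lyz2-high barcodes the ratio was 1.6. Cd86, the other CD28 ligand, had only 12 (PKCi) and 14 (control) UMIs and was not measured. Entpd1 (chr19:40612366-40741602, plus strand), or CD39, which hydrolyses extracellular ATP and ADP, stood at 1501 (PKCi) and 379 (control) CPM, a ratio of 3.96 (2.96 to 5.38), and was found in 64 of 76 PKCi and 30 of 50 control barcodes. Nfkb1, which encodes the p105 and p50 forms of NF-kB, stood at 1602 (PKCi) and 406 (control) CPM, a ratio of 3.95 (2.98 to 5.3). By span, Entpd1 and Nfkb1 are among the longest genes described above and Cd80 is in the middle range.

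The other named genes at higher levels were the nuclear receptor Nr4a3, at 245 (PKCi) and 27.1 (control) CPM, the protein crosslinking enzyme Tgm2, at 793 (PKCi) and 122 (control) CPM, and the leukocyte adhesion gene Jaml, at 346 (PKCi) and 54.1 (control) CPM. Their ratios were 9.05 (3.3 to 34.6), 6.51 (3.98 to 11.3) and 6.39 (3.06 to 15.4). Nr4a3 rested on 4 control UMIs, so its ratio has a wide interval. Ceramide synthase Cers6 had a ratio of 6.08 (3.23 to 12.6), the triglyceride-forming enzyme Dgat1 3.89 (2.36 to 6.75), the dynein regulator Ndel1 4.34 (2.87 to 6.81), the small GTPase Rab44 5.08 (2.82 to 9.94) and the nuclear pore gene Nup98 4.96 (2.53 to 10.8). The splicing factor Isy1, the motor Myo1d, the transcription repressor Klf3 and Btbd9 had ratios of 6.03 (Isy1), 4.17 (Myo1d), 4.02 (Klf3) and 4.0 (Btbd9). All 15 genes also had a ratio above 1 in S100-high barcodes, from 1.69 for Cers6 to 8.84 for Nr4a3. At the lower end, the adaptor Fyb had a ratio of 0.157 (0.0711 to 0.314), the linker histone Hist1h1c 0.197 (0.106 to 0.344), the cation channel Tmem38b 0.216 (0.1 to 0.43), the ribonuclease inhibitor Rnh1 0.24 (0.142 to 0.392) and Il1a 0.232 (0.16 to 0.331).

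**Figure D3:**
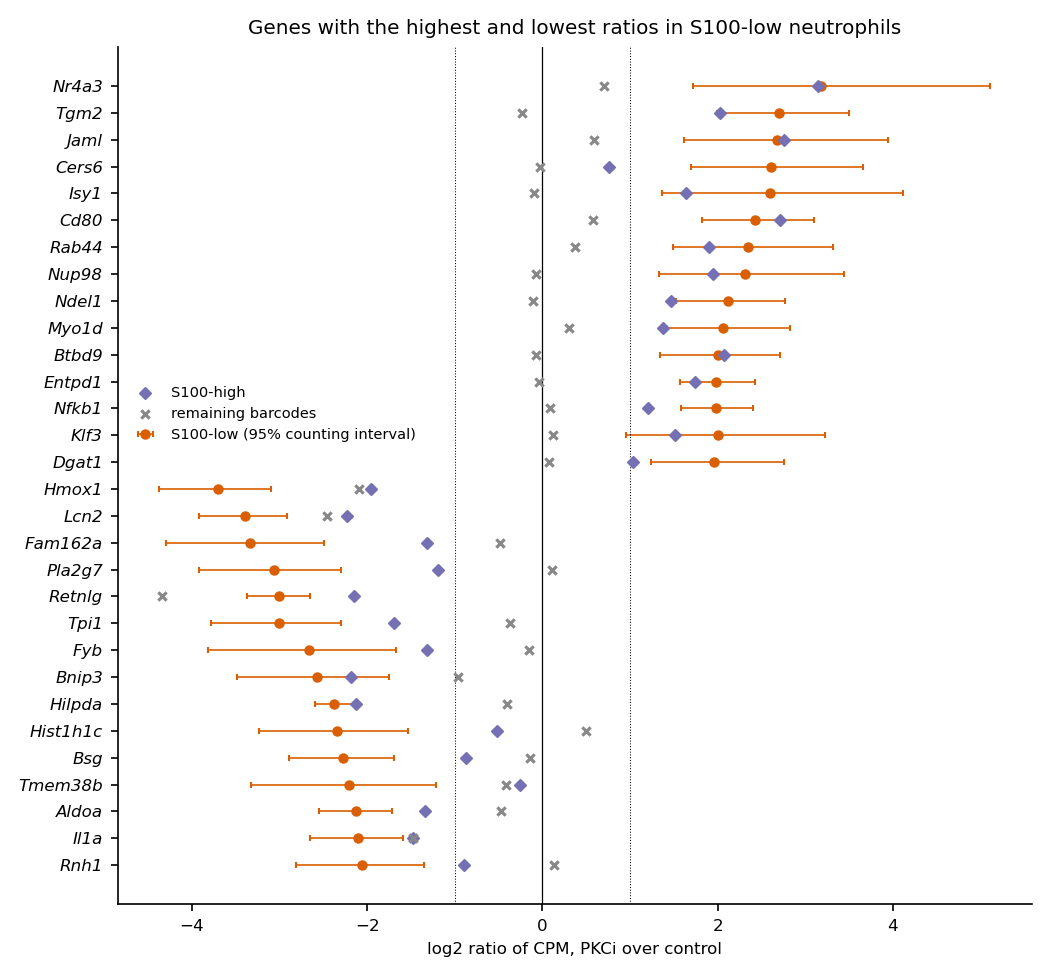
The log2 ratio of CPM, PKCi over control, for 15 named genes on the higher and 15 on the lower side in S100-low neutrophils (circles, with 95% counting intervals), in S100-high barcodes (diamonds) and in the remaining barcodes (crosses), with dotted lines at 2-fold. The circles chose the genes, and the diamonds lie on the same side of 0 for all 30 genes, between a ratio of 8.84 for Nr4a3 and 0.214 for Lcn2.

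Chemokines were abundant and had a median log2 ratio of -0.34. Cxcl2, a ligand of Cxcr2, reached 35031 CPM in the PKCi library and 47758 CPM in the control library, a ratio of 0.734 (0.709 to 0.759), and was detected in 75 of 76 PKCi and 50 of 50 control barcodes. Cxcl3 stood at 8128 (PKCi) and 10299 (control) CPM, and Ccl3 and Ccl4, which attract leukocytes, at 6334 (PKCi) and 12471 (control) CPM and 2720.1 (PKCi) and 4642 (control) CPM, ratios of 0.508 (0.472 to 0.547) and 0.586 (0.522 to 0.658). Of 9 measured chemokines 2 were at least 2-fold higher and 1, Ccl9 at 181 (PKCi) and 399 (control) CPM, at least 2-fold lower, with 47.5% of its control UMIs in 1 barcode. The shares over all measured genes were 15.6% higher and 9.05% lower. The ratios of the 2 higher chemokines were smaller without deep barcodes, and Cxcl1 alone then stayed at least 2-fold higher. Without the 2 PKCi barcodes over 10000 UMIs the ratio of Cxcl10 was 1.2 (0.67 to 2.17) in place of 3.63 (2.29 to 5.97), and that of Cxcl1 2.07 (1.44 to 3.02) in place of 4.0 (2.9 to 5.64). Ccl2 likewise had 0.899 in place of 1.77.

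Of 7 measured cytokines, oncostatin M, Osm, at 1086 (PKCi) and 325 (control) CPM, and the macrophage growth factor Csf1, at 899.6 (PKCi) and 406 (control) CPM, were at least 2-fold higher, with ratios of 3.34 (2.43 to 4.68) and 2.22 (1.64 to 3.03). Il1a, at 218 (PKCi) and 941 (control) CPM, and Tnf, at 399 (PKCi) and 866 (control) CPM, were at least 2-fold lower. Il1b, the main inflammasome product, was much more abundant, at 9539 CPM in the PKCi library and 7199.6 CPM in the control library, and had a ratio of 1.32 (1.23 to 1.43). The inflammasome sensor Nlrp3 stood at 1427 (PKCi) and 669.9 (control) CPM, a ratio of 2.13 (1.69 to 2.71), and the prostaglandin synthase Ptgs2 at 1458 (PKCi) and 690.2 (control) CPM, a ratio of 2.11 (1.68 to 2.68). Thus the 2 interleukin-1 genes stood on opposite sides of equal levels. Of 6 measured immune-suppressive genes, Ptgs2 and Olr1 were at least 2-fold higher, and Wfdc17 and Cd274 at least 2-fold lower. Cd274, which encodes PD-L1, stood at 692 (PKCi) and 1401 (control) CPM, a ratio of 0.494 (0.394 to 0.618), with 1.17 (0.971 to 1.41) in S100-high barcodes. Of 3 measured eicosanoid genes, Ptgs2 was higher, and Pla2g7 and Alox5ap, at 218 (PKCi) and 535 (control) CPM, were lower. Across all measured genes 15.6% were at least 2-fold higher and 9.05% lower. The cytokine, suppressive and eicosanoid lists are too short for their counts to be read beyond the genes named. The oxidised-lipid receptor Olr1 stood at 554 (PKCi) and 162 (control) CPM, a ratio of 3.41 (2.17 to 5.56), and Arg2 at 974 (PKCi) and 744 (control) CPM.

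Of 18 measured immediate early genes 3 were at least 2-fold higher and none at least 2-fold lower, a share of higher genes close to the 15.6% of all measured genes. The median log2 ratio was 0.65, against 0.10 over all measured genes. In S100-high barcodes 3 of 19 were at least 2-fold higher and 1 at least 2-fold lower, with a median of 0.66. The 3 were Fosb at 426 (PKCi) and 94.7 (control) CPM, Fosl2 at 373 (PKCi) and 122 (control) CPM and Nr4a1 at 782 (PKCi) and 311 (control) CPM. Fos itself, at 1097 (PKCi) and 968 (control) CPM, was close to equal. In the remaining barcodes Fosb and Nr4a1 had ratios of 1.68 and 1.47.

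Among 13 adhesion and chemoattractant receptors, 2 were at least 2-fold higher, likewise close to the 15.6% of all measured genes, and none at least 2-fold lower. The hyaluronan receptor Cd44, at 2049 (PKCi) and 913 (control) CPM, was among the higher ones. The complement receptor C5ar1, at 623 (PKCi) and 433 (control) CPM, and Ccr1, at 1192 (PKCi) and 839 (control) CPM, were within that limit. Of 6 measured subunits of the oxidase that makes superoxide, Ncf4, at 101 (PKCi) and 250.4 (control) CPM, was the 1 at least 2-fold lower, and the median log2 ratio was -0.55. Of 5 measured transcription factors of granulocyte development, Runx1 was at least 2-fold higher, at 724 (PKCi) and 311 (control) CPM, while Cebpb stood at 6467 (PKCi) and 4777 (control) CPM and Spi1 at 282 (PKCi) and 284 (control) CPM. Of 8 measured apoptosis genes 1, the survival gene Bcl2l1 at 128 (PKCi) and 271 (control) CPM, was at least 2-fold lower and none higher, and Mcl1, on which neutrophil survival depends, stood at 1959 (PKCi) and 1881 (control) CPM. Of all measured genes 15.6% were at least 2-fold higher and 9.05% lower. Counts of 1 gene do not set the oxidase, transcription factor and apoptosis lists apart from these shares. Xiap, named in the title of the series, had 12 (PKCi) and 7 (control) UMIs and could not be compared at this depth. No protein kinase C gene passed the minimum. Prkcd had 36 UMIs in the PKCi and 9 in the control library, Prkcb 29 and 9, and Prkch 18 and 25.

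Interferon-stimulated genes gave a mixed picture. Of 7 measured genes 3 were at least 2-fold higher and 1 at least 2-fold lower, with a median log2 ratio of 0.90 in S100-low neutrophils, against -0.32 over 11 genes in S100-high barcodes. Without the 2 deep PKCi barcodes the S100-low median was 0.26. Isg15, a ubiquitin-like protein, stood at 426 (PKCi) and 33.8 (control) CPM and Rsad2, an antiviral enzyme, at 511 (PKCi) and 162 (control) CPM, but 1 barcode held 33.8% and 56.2% of their PKCi UMIs. Ifitm1, a membrane protein that blocks virus entry, was lower, at 921 (PKCi) and 2707 (control) CPM, a ratio of 0.34 (0.283 to 0.408). The integrated stress response list, 6 measured genes, and the list of other S100 genes, 4 measured genes, had none past 2-fold, and of the 4 measured antigen presentation genes Cd80 alone was. Of 14 measured genes reported in neutrophils retained in tumours, Ptgs2 and Nr4a3 were at least 2-fold higher, and Cd274, Hilpda, Cstb, Ctsb and the galectin gene Lgals3, at 857 (PKCi) and 2226 (control) CPM, were at least 2-fold lower. Of 11 NF-kB genes, Nfkb1 was the 1 higher and Sod2, at 394 (PKCi) and 893 (control) CPM, the 1 lower, while the inhibitor Nfkbia stood at 5025 (PKCi) and 5021 (control) CPM. Over all measured genes 15.6% were at least 2-fold higher and 9.05% lower. Both NF-kB counts, and the 2 higher of the 14 tumour-retained genes, lay near or below these shares.

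S100-low barcodes were also set against the S100-high barcodes of the same library. Since the groups were cut by S100a8 and S100a9 from the same cells, the values are a description. The limits on C1q, Lyz2 and the marker genes held for the S100-low barcodes only. With these limits on the S100-high barcodes too, the ratios of 3 named genes were classed as moved and those of 8 as the same. Of 923 genes measured in both libraries, 9 were at least 2-fold higher in S100-low than in S100-high barcodes in both, which is 0.975%, and 10 were at least 2-fold lower, which is 1.08%. Within the PKCi library alone 52 genes, or 5.63%, were at least 2-fold higher and 37, or 4.01%, at least 2-fold lower. Within the control library alone these were 60 genes, or 6.5%, and 49 genes, or 5.31%. S100a8 and S100a9 took 2.32% of the UMIs of S100-low and 9.75% of those of S100-high barcodes in the PKCi library, and 2.70% and 16.5% in the control library. With these UMIs left out of the totals, 3 genes were at least 2-fold higher and 20 lower in both libraries.

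The genes at higher levels in S100-low neutrophils that met the naming rule were F10, coagulation factor X, and Sema4d, a semaphorin that acts on plexins. In the PKCi library F10 stood at 383 CPM in S100-low and 117 CPM in S100-high barcodes, a ratio of 3.29 (1.87 to 6.18), and at 819 and 345 CPM in the control library, a ratio of 2.38 (1.9 to 2.97). Sema4d had ratios of 2.31 (1.49 to 3.69) in the PKCi and 2.0 (1.56 to 2.56) in the control library. Of list genes outside the naming rule, Hilpda had ratios of 2.06 (1.56 to 2.73) (PKCi) and 2.44 (2.24 to 2.65) (control), Csf1 2.63 (1.88 to 3.76) (PKCi) and 2.24 (1.62 to 3.06) (control), Tnf 2.71 (1.62 to 4.74) (PKCi) and 2.2 (1.77 to 2.72) (control), and S100a10, whose remaining barcodes held 1605 CPM in the PKCi library, 2.41 (1.47 to 4.13) (PKCi) and 2.82 (2.04 to 3.86) (control). A gene was counted only if both libraries placed it on the S100-low side, so that agreement is no separate result. For Hilpda, 1 PKCi S100-low barcode alone held 57 UMIs. With S100a8 and S100a9 UMIs left out of the totals, each of these ratios would be lower. Sema4d, Csf1 and Tnf in the control library and Hilpda in the PKCi library would then be under 2-fold. With no limit on Krt8 and Rhox5 UMIs, F10 and Sema4d would lie on the S100-high side, at log2 ratios of -1.16 and -1.37 in the library nearer 0.

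Of 9 measured interferon-stimulated genes, 2 were at least 2-fold lower and 2 at least 2-fold higher in S100-low than in S100-high barcodes of the PKCi library, with a median log2 ratio of -0.56. In the control library 6 were lower and none higher, with a median of -1.31. Ifitm1 and Ifitm2 were lower in both libraries, and Isg15, Slfn4, Ifitm3 and Isg20 in the control library. The 2 higher genes of the PKCi library, Rsad2 at 8.22 (4.01 to 19.6) and Cxcl10 at 8.07 (4.09 to 18.1), had 56.2% and 72.6% of their S100-low UMIs in 1 barcode. Of 6 measured genes of secondary and tertiary granules, 2 were at least 2-fold lower in the PKCi and 4 in the control library, Retnlg alone in both, and none was higher in either. Retnlg stood at 415 CPM in S100-low and 3479.9 CPM in S100-high PKCi barcodes, a ratio of 0.119 (0.0926 to 0.152), and at 3329 and 15431 CPM in control ones, a ratio of 0.216 (0.197 to 0.236). Ifitm1 had ratios of 0.446 (0.366 to 0.542) (PKCi) and 0.403 (0.363 to 0.446) (control), Ifitm2 0.436 (0.368 to 0.515) (PKCi) and 0.451 (0.39 to 0.521) (control), and Alox5ap, which presents arachidonic acid for leukotriene synthesis, 0.453 (0.298 to 0.683) (PKCi) and 0.458 (0.359 to 0.578) (control). The other named genes were the Rac inhibitor Arhgap15, the selenoprotein gene Selenon, glycerol kinase Gk, the coenzyme Q carrier Coq10b and the RNA-binding gene Cpeb2, with ratios from 0.215 (Arhgap15) to 0.498 (Cpeb2) in the PKCi and from 0.194 (Gk) to 0.441 (Coq10b) in the control library. Without barcodes over 10000 UMIs, 6 genes in place of the 10 given above were at least 2-fold lower in both libraries.

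Finer steps of the S100 share gave the same picture for Retnlg. Its level was 292, 237, 592, 1171 and 6902 CPM in PKCi barcodes at 0.5% to 1%, 1% to 2%, 2% to 5%, 5% to 10% and over 10% of S100 RNA. In control barcodes it was 1559, 1798, 3895, 7075 and 17826 CPM. Retnlg was thus highest at the highest S100 share in both libraries and lower in the PKCi library at each step. Hilpda was lowest over 10%, at 116 CPM in the PKCi and 1830.5 CPM in the control library, while its highest level was at 0.5% to 1% in the PKCi library, 2789 CPM, where 1 barcode held 66.3% of the 86 UMIs, and at 2% to 5% in the control library, 6610.0 CPM. Cd80 stayed higher in the PKCi library at each step, at 1199.8 (PKCi) and 389.9 (control) CPM at the lowest and 1215 (PKCi) and 158 (control) CPM at the highest. The lowest steps held 18 PKCi and 5 control barcodes at 0.5% to 1%, and 18 and 9 at 1% to 2%, so control levels there rest on few cells.

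**Figure D4:**
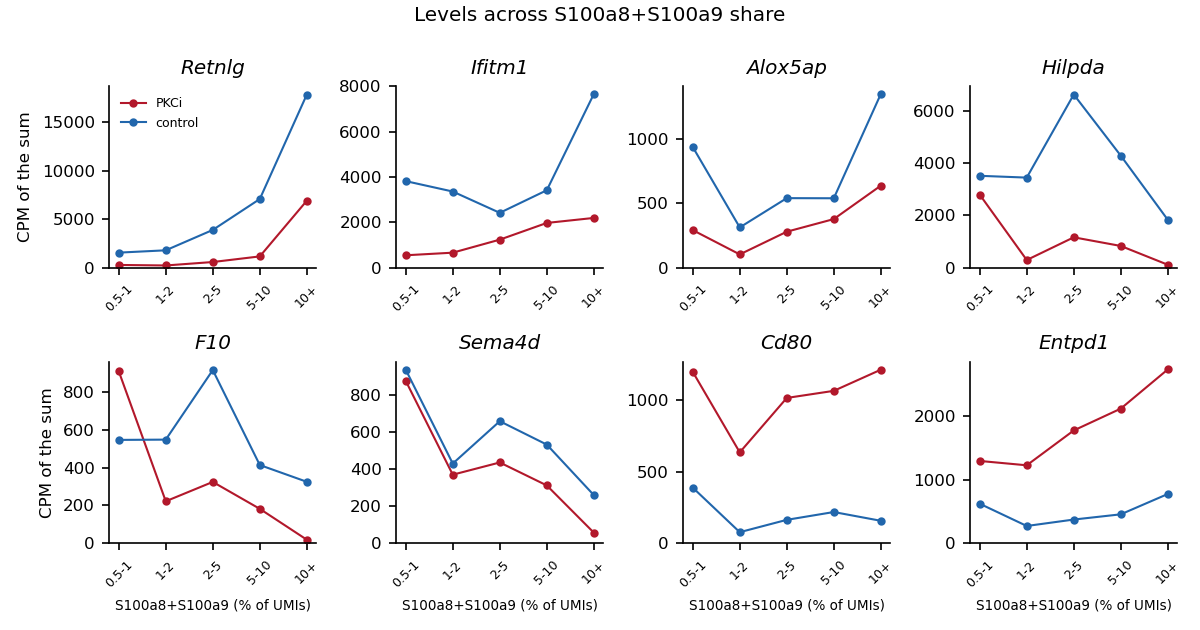
CPM of the summed barcodes (vertical, linear axes from 0) for 8 genes in 5 steps of the S100a8 plus S100a9 share (horizontal, percent of UMIs) in the PKCi (red) and control (blue) libraries, under the carcinoma limit. Retnlg is highest over 10% in both libraries, at 6902 (PKCi) and 17826 (control) CPM, and Cd80 and Entpd1 are higher in the PKCi library at all 5 steps.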

How the data were processed

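Whole tumours were enzymatically dissociated, filtered at 70 micrometres and run on 10x 3' version 3.1 reagents and a NovaSeq 6000 sequencer, according to the labels. The deposited values are whole-number UMI counts for 32285 genes per barcode, written by Cell Ranger 7.0.0 per the file headers. The submitters' processing notes also name GRCm38 and Seurat, without a role. Gene coordinates are from GENCODE for GRCm38.

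The S100-low rule was applied to the counts of 7457 PKCi and 6688 control barcodes. Kept barcodes held 228920859 and 222236023 UMIs. The members and gene lists were chosen with earlier results of these data known. UMIs were summed over barcodes under 3 Krt8 and Rhox5 UMIs and scaled to 1000000 (CPM). Ratios have exact conditional 95% intervals, shares Clopper-Pearson intervals, and log2 ratios 0.5 counts added to each sum. A count of 0 allows up to 3 counts. A gene counted as measured had 50 UMIs over both sums and 50 CPM in 1.

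Named genes were the 15 highest and 15 lowest ratios past 2-fold, with levels at least those of the remaining barcodes and 25% of those of C1q-high and Lyz2-high barcodes, and at most 20% of UMIs from 1 barcode, all in the library where the gene was higher. Only 2 and 9 genes met this between S100 groups. Predicted, ribosomal, mitochondrial and similar genes were not named. Other genes come from 35 lists. Doublets were called with Scrublet in scanpy 1.11.5 at an expected 6% and kept in the results. It marked 1.83% of kept PKCi and 1.74% of kept control barcodes, and 3 of 78 and 11 of 72 S100-low ones. Thinning drew 1000 UMIs per barcode and left out 4 PKCi barcodes. The ratio code was tested on simulated data. Alternatives were 13 planned and 2 added after seeing the data. 1 gene counted among the adhesion receptors is not reported here by name.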

Additional observations from a re-analysis of the deposited data

Results flagged for a closer look

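Rgs2, Camk2d and Cxcl10 went opposite ways past 2-fold in S100-low and S100-high barcodes, and the differences were not tested. With 0.5 counts added, Rgs2, a regulator of G protein signalling, had a PKCi over control ratio of 0.488 in S100-low neutrophils and 2.10 in S100-high barcodes, from 24 PKCi and 39 control UMIs in S100-low neutrophils. Camk2d, a calcium-dependent kinase, had ratios of 3.71 and 0.436, and 1 barcode held 87.8% of its PKCi S100-low UMIs. Cxcl10 had ratios of 3.57 and 0.340, and 1 barcode held 72.6%. Without the 2 PKCi barcodes over 10000 UMIs, the S100-low ratio of Camk2d was 0.19, that of Cxcl10 1.2 and that of Rgs2 0.585.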

How the results depend on the processing

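No paired analysis was possible because there was 1 library per treatment, and for the same reason no replicate could be left out. With no limit on Krt8 and Rhox5 UMIs, 762 genes were at least 2-fold higher and 1368 lower in PKCi S100-low neutrophils, in place of 157 and 91, and 58 and 35 in place of 9 and 10 between S100 groups in both libraries. Then 16 gene lists in place of 9 had a median at least 0.5 (log2) from that of all genes. Of the 91 lower genes, 19 were among the 1368. Under that setting the medians of the NADPH oxidase (1.12), eicosanoid (0.052) and lysosome and lipid (0.57) lists and the log2 ratios of Hilpda (0.14), Tmem38b (0.31) and Il1a (0.37) turned to higher in the PKCi library, and those of F10 (-1.16) and Sema4d (-1.37) to lower in S100-low barcodes. This setting adds 22 control barcodes that supply most control UMIs. The ratio of S100-low shares was 1.35 under the carcinoma limit in place of 0.959. With 20 UMIs and no CPM minimum, which admits more genes, 504 and 230 genes were past 2-fold between treatments and 61 and 19 between S100 groups. Subtracting the profile of the remaining barcodes gave 182 lower genes. Between S100 groups, a boundary at 3% gave 17 lower genes, leaving S100 UMIs out of the totals 3 higher and 20 lower, and removing barcodes over 10000 UMIs 6 lower, and the cause was not tested. The S100-low share of both S100 groups had a ratio from 1.85 to 2.69 in all settings tried. Depth limits genes under about 50 CPM, with medians of 1980.5 and 2813 UMIs per barcode.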
